A study of Mus musculus with 9 samples.

Results

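Gpnmb is 1 gene of the 55487 counted in this series, and it was chosen because it is known as a marker of lysosomal stress and because the 2 guides against Slc12a9 differ at it. It encodes a transmembrane glycoprotein, also called osteoactivin or DC-HIL, that travels to lysosomes and to the cell surface, where it can be cut off and released. In macrophages its transcription is known to depend on MITF and TFE3, factors of the MiT/TFE family that leave the cytoplasm for the nucleus when lysosomes are disturbed, and it is strongly induced when lysosomes store undegraded lipid. The choice used its levels in all 3 groups of libraries, so those levels and the differences between them are given as a description, without a test.

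Gene counts came from polyadenylated RNA of J774A.1 cells, a mouse macrophage line, in 3 groups of 3 libraries. Cells of the first group carried Slc12a9 sgRNA 15 and cells of the second Slc12a9 sgRNA 11, both with the genotype labelled as an SLC12A9 knockdown (the series' design text says knockout). The third group carried a safe control sgRNA and had the genotype label WT. All 9 samples had been grown with 10% fetal bovine serum and glutamine and were then kept for 6 h without serum and without glutamine before lysis. How the guides were delivered, and whether a guide's cells are a pool or 1 clone, is not stated, so effects of a guide and effects of the cell population that carries it cannot be told apart. The labels do not say that replicates are separate cultures either, so p-values cover only how far these samples scatter, and that scatter may be technical.

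Gene counts summed to between 16405296 and 25613961 per library, and 13453 genes had enough counts to be tested. No pair of replicates agreed within counting noise (chi-square per degree of freedom from 1.76 to 6.83). Slc12a9 mRNA, the target of both guides, stood at 48.2 to 51.7 CPM (gene counts scaled to library size, with TMM factors) with sgRNA 15, at 62.6 to 67.0 CPM with sgRNA 11 and at 44.8 to 53.5 CPM with safe sgRNA. Neither guide thus lowered this mRNA, and it rose with sgRNA 11 (log2 0.43, SE 0.05, adjusted p = 6.45e-13 in edgeR's quasi-likelihood test with Benjamini-Hochberg adjustment over all tested genes, as for every adjusted p given here). Gene counts do not show whether the protein was lost. All 11 macrophage markers were detected, with summed levels of 7850 to 7922 CPM with sgRNA 15, 9523 to 9828 CPM with sgRNA 11 and 6070 to 6226 CPM with safe sgRNA. The 16 markers of other cell types summed to 12.3 to 14.8 CPM with sgRNA 15, 13.3 to 16.9 CPM with sgRNA 11 and 5.96 to 7.50 CPM with safe sgRNA, and Col1a2, Epcam, Krt8, Krt18, Cd3e and S100a9 had no read in any library. Both marker sums were higher with each guide than with safe sgRNA, and most of each rise came from 1 gene. Other macrophage markers moved too: of the 11, 7 were called higher and 3 lower with sgRNA 15 (32.2% and 30.7% of all tested genes). With sgRNA 11, 8 were called higher and 2 lower (33.3% and 32.4% of all tested genes). Lyz2, the macrophage lysozyme, averaged 3567 CPM with sgRNA 15, 4513 CPM with sgRNA 11 and 1727 CPM with safe sgRNA, while Cd14 fell with both guides (log2 -0.46 with sgRNA 15 and -0.65 with sgRNA 11). Vwf, an endothelial marker, averaged 8.27 CPM with sgRNA 15, 8.95 CPM with sgRNA 11 and 1.69 CPM with safe sgRNA. The part of these markers in the results was not tested.

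Gpnmb (ENSMUSG00000029816) was about 4 times higher with sgRNA 15 than in either other group, and with sgRNA 11 its level was close to that with safe sgRNA. The 3 libraries with sgRNA 15 held 108, 109 and 107 CPM. Those with sgRNA 11 held 24.1, 22.7 and 25.9 CPM, and the safe libraries 25.4, 25.3 and 26.2 CPM. The libraries with sgRNA 15 all lay far above the rest, and the range of sgRNA 11 overlapped that of safe sgRNA. In bulk RNA a change in the number of cells that express a gene and a change in RNA per cell cannot be told apart.

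The group means were 108 ± 0.992 CPM with sgRNA 15, 24.2 ± 1.64 CPM with sgRNA 11 and 25.6 ± 0.478 CPM with safe sgRNA (SD, n = 3 each). The lowest library with sgRNA 15 exceeded the highest of sgRNA 11 by 81.0 CPM and the highest safe library by 80.8 CPM, gaps many times wider than the spread within any group. The ratio of group means was 4.21 for sgRNA 15 against safe sgRNA (fitted log2 difference 2.07, SE 0.05) and 4.45 for sgRNA 15 against sgRNA 11 (log2 2.15, SE 0.05). Between single libraries the first ratio ran from 4.08 to 4.30 and the second from 4.13 to 4.81. For sgRNA 11 against safe sgRNA the ratio was 0.945 (log2 -0.08, SE 0.06), and single libraries gave 0.865 to 1.02. Gpnmb was thus high with 1 guide only, and the means with sgRNA 11 and safe sgRNA lay closer together than the SD of the libraries with sgRNA 11.

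**Figure D1:**
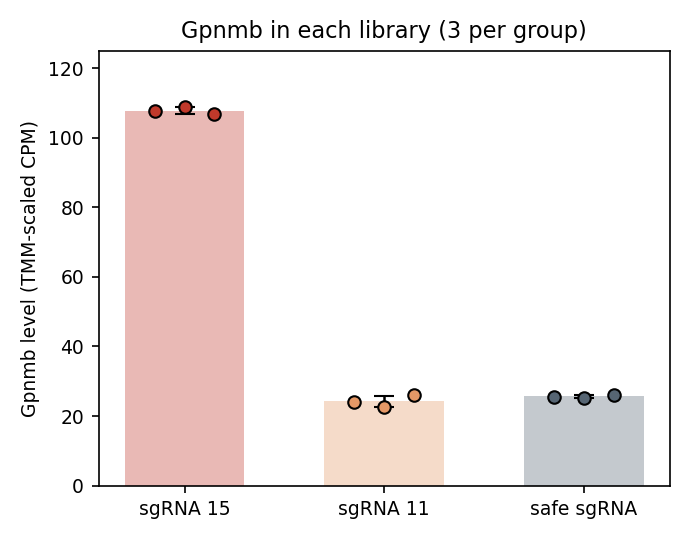
Gpnmb level in CPM with TMM factors (vertical axis, linear from 0) for the libraries with sgRNA 15, sgRNA 11 and safe sgRNA. Points are libraries, bars the mean and error bars the SD of 3 libraries; the sgRNA 15 libraries sit at 107 to 109 CPM and all others between 22.7 and 26.2 CPM.

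These levels rest on a good number of reads in every library. Gpnmb was covered by 2229, 2589 and 1767 reads with sgRNA 15, by 547, 406 and 572 reads with sgRNA 11 and by 636, 501 and 485 reads with safe sgRNA. Counting error alone would give an SD of about 2.32 CPM with sgRNA 15, 1.08 CPM with sgRNA 11 and 1.11 CPM with safe sgRNA. The measured SD was larger than that with sgRNA 11 and smaller in the other groups. Among the 13453 tested genes ordered by log2 difference, from the highest, Gpnmb ranked 14 for sgRNA 15 against sgRNA 11, 114 for sgRNA 15 against safe sgRNA and 7773 for sgRNA 11 against safe sgRNA. Per kilobase of annotated exon, its level was 16.6 CPM with sgRNA 15, 3.72 CPM with sgRNA 11 and 3.93 CPM with safe sgRNA. On that scale it stood at percentile 75.9 of the tested genes with sgRNA 15, 40.8 with sgRNA 11 and 42.7 with safe sgRNA, near the middle of the tested genes except with sgRNA 15. The exon length used, 6514 bases, merges all annotated transcripts, those with a retained intron included. It is longer than any single transcript, which lowers the level per kilobase.

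Gpnmb lies on chromosome 6 from 49036546 to 49070929 on the plus strand (GRCm38, the same build as mm10; GENCODE M21). The annotation gives it 5 transcripts. One of the protein-coding transcripts has 11 exons, 3701 bases and an open reading frame of 574 codons, and the other ends farther downstream and has 526 codons. The remaining models are a nonsense-mediated decay transcript and 2 with a retained intron. None of its exons overlaps another gene of this annotation, on either strand, so no other gene model there competes for its reads. The annotation and strand setting used for counting are not given. Counts per gene do not tell these transcripts apart.

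The start of the gene is shown because the MiT/TFE factors bind short E-box letters in promoters. The RefSeq window of GRCm38.p6 at chr6:49036268-49036567, plus strand, runs from 250 bases before the RefSeq start to 50 bases after it, with the letters of an AP-1 site in capitals:

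Gpnmb: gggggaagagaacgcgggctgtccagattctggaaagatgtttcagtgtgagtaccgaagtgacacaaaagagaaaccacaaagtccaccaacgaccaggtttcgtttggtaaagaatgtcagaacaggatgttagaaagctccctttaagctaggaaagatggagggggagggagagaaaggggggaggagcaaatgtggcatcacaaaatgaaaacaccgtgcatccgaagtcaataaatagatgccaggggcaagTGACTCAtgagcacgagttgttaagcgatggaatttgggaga

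Searched on both strands, the window held TGACTCA once, at base 9 after the RefSeq start and 20 bases before the first GENCODE exon. That exon belongs to a transcript with a retained intron, and the protein-coding transcripts of GENCODE start farther downstream, at 49036615 and 49036677. The letters of the CLEAR-type E-box core (CACGTG), of the M-box (TCATGTG), of the full CLEAR palindrome and of a C/EBP-ATF element (TGATGCAAT) were not in this window. Looser E-box letters (CANNTG) occurred at 2 places, of which 1 overlaps the AP-1 letters. Among all 32841 promoter windows of that length, TGACTCA stood in 5.20%, CACGTG in 7.15%, TCATGTG in 3.77%, the CLEAR palindrome in 0.326%, TGATGCAAT in 0.192% and CANNTG in 72.3%. Of the MiT/TFE target genes listed further on, tested or not, 22 had a window, and CACGTG stood in those of 8 (Atp6v0d1, Cln3, Ctsa, Ctsd, Gla, Lamp1, Mcoln1 and Plin2). TCATGTG stood in those of 5 genes, and TGACTCA in that of Neu1 alone. Counted by gene in the same way, with any window of a gene enough, CACGTG stood in 8.09% of all genes with a window, TCATGTG in 4.31% and TGACTCA in 5.95%. These matches describe letters in 300 bases and say nothing of binding here or farther away.

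The mRNAs of the MiT/TFE factors did not move in 1 direction with sgRNA 15: Mitf rose, and Tfeb and Tfe3 fell. Of the 4 family members 3 were tested, and Tfec, the other one, had 32 reads over the 9 libraries. Mitf stood at 34.95, 37.6 and 31.0 CPM with sgRNA 15, at 32.5, 31.0 and 28.9 CPM with sgRNA 11 and at 28.4, 29.4 and 30.9 CPM with safe sgRNA. It rose with sgRNA 15 (log2 0.23, SE 0.06, adjusted p = 0.000606). The lowest sgRNA 15 library (30.99 CPM) was only barely above the highest safe library (30.88 CPM), and the libraries of sgRNA 11 overlapped both groups. Mitf was also called higher with sgRNA 15 than with sgRNA 11 (log2 0.17, adjusted p = 0.0202), a call that was lost without sgRNA 15 replicate 1, sgRNA 15 replicate 2 or sgRNA 11 replicate 3 (adjusted p = 0.0780, 0.318 and 0.184), in DESeq2 (0.0728) and with GC content and gene length corrected for (0.260).

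Tfeb, the family member best known for driving lysosome formation, fell with both guides. It stood at 32.5, 36.7 and 35.1 CPM with sgRNA 15, at 44.3, 44.6 and 41.9 CPM with sgRNA 11 and at 46.4, 49.5 and 55.7 CPM with safe sgRNA, and the groups did not overlap. The change was larger with sgRNA 15 (log2 -0.53, SE 0.06, adjusted p = 5.63e-14) than with sgRNA 11 (log2 -0.21, SE 0.05, adjusted p = 0.000463), and the guides differed (log2 -0.32, adjusted p = 1.71e-06). Tfe3 fell with sgRNA 15 to 83.8 ± 1.97 CPM, against 94.5 ± 3.77 CPM with safe sgRNA (SD, n = 3 each; log2 -0.17, adjusted p = 5.39e-05). With sgRNA 11 Tfe3 averaged 99.5 ± 0.88 CPM (SD, n = 3; log2 0.08 against safe sgRNA, adjusted p = 0.0624), and it was called higher without safe replicate 3 or sgRNA 15 replicate 1 (adjusted p = 0.0349 and 0.0461), with scaling by library size only (0.00706) and with a minimum mean of 5 CPM (0.0104). With GC content and length corrected for, the value of Tfe3 with sgRNA 11 was -0.028. Per kilobase of exon the levels with sgRNA 15 were 9.05 CPM for Tfe3, 6.13 CPM for Tfeb and 5.57 CPM for Mitf, and those with safe sgRNA 10.2 CPM for Tfe3, 8.91 CPM for Tfeb and 4.77 CPM for Mitf. Tfe3 thus had the highest level of the 3 on that scale in both groups.

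Of the genes that control where these factors reside, Fnip2 and Rragc rose with sgRNA 15 and fell with sgRNA 11, while Mcoln1, Ppp3ca, Rraga and Rptor moved the same way with both guides. Folliculin, the product of Flcn, and its partners FNIP1 and FNIP2 act on the Rag GTPases, through which mTORC1 keeps MiT/TFE factors out of the nucleus, and the calcineurin catalytic subunits (Ppp3ca, Ppp3cb) and the lysosomal calcium channel Mcoln1 act in the opposite direction. Of the 11 tested genes of this list, 7 were called higher and 2 lower with sgRNA 15 against safe sgRNA, where 32.2% of all tested genes were called higher and 30.7% lower. Against sgRNA 11, 8 were higher with sgRNA 15 and 1 was lower (18% and 15.5% of all tested genes). With sgRNA 11 against safe sgRNA, 2 were higher and 5 lower (33.3% and 32.4% of all tested genes). The median log2 differences of the list were 0.27, 0.26 and -0.09 in these 3 comparisons, and those of all tested genes 0.012, 0.0060 and 0.013. The comparisons share libraries, so their counts are not independent of each other. Among all tested genes, 1.88% were, like Fnip2 and Rragc, called in opposite directions against safe sgRNA with a called difference between the guides. Rragd had 3 reads in all and was not tested.

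Fnip2 had the widest gap between the guides in that list. It stood at 254, 264 and 254 CPM with sgRNA 15, at 119, 116 and 119.8 CPM with sgRNA 11 and at 151, 149 and 144 CPM with safe sgRNA. The groups did not overlap, and Fnip2 rose with sgRNA 15 (log2 0.80, SE 0.03, adjusted p = 2.42e-41) and fell with sgRNA 11 (log2 -0.32, SE 0.03, adjusted p = 7.88e-16). Fnip1 rose to 86.6 ± 3.47 CPM with sgRNA 15, against 57.9 ± 2.26 CPM with safe sgRNA (SD, n = 3 each; log2 0.58, adjusted p = 5.13e-21). With sgRNA 11 it averaged 57.3 ± 3.42 CPM (SD, n = 3; log2 -0.01 against safe sgRNA, adjusted p = 0.821). Flcn likewise rose with sgRNA 15 (log2 0.38, SE 0.04, adjusted p = 1.25e-12), and stood at log2 -0.08 with sgRNA 11 (adjusted p = 0.106). Flcn was called lower with sgRNA 11 without safe replicate 1 (log2 -0.12, adjusted p = 0.0261) and with GC content and length corrected for (log2 -0.23). Each of these 3 genes was higher with sgRNA 15 than with sgRNA 11 (log2 1.12 for Fnip2, 0.59 for Fnip1 and 0.46 for Flcn, adjusted p from 2.17e-15 down to 2.43e-50).

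The Rag GTPases differed among themselves. Rragc rose with sgRNA 15 (198 ± 0.374 CPM, against 148.5 ± 1.73 CPM with safe sgRNA; SD, n = 3 each; log2 0.41, adjusted p = 3.01e-21) and fell with sgRNA 11 (128 ± 7.47 CPM, log2 -0.21, adjusted p = 8.49e-09). Rragb rose by a small amount with sgRNA 15 (log2 0.27, adjusted p = 0.0153), a call that DESeq2 did not make (adjusted p = 0.0524) and that was lost without safe replicate 1 or sgRNA 15 replicate 1 (0.0749 and 0.0800). Rraga fell with both guides (log2 -0.58 with sgRNA 15 and -0.84 with sgRNA 11, adjusted p = 9.61e-22 and 7.44e-31). Mcoln1 rose with both guides (log2 0.83 with sgRNA 15 and 0.67 with sgRNA 11), and so did Ppp3ca (log2 0.27 with sgRNA 15 and 0.40 with sgRNA 11). Ppp3cb was not called with sgRNA 15 (log2 0.02, adjusted p = 0.637) and fell with sgRNA 11 (log2 -0.15, adjusted p = 0.000691; 0.140 with GC content and length corrected for). Of the mTORC1 core, Rptor fell with both guides (log2 -0.18 with sgRNA 15 and -0.17 with sgRNA 11). Mtor was not called with either guide (log2 -0.06 with sgRNA 15 and -0.02 with sgRNA 11, adjusted p = 0.14 and 0.612), but with GC content and length corrected for it was called lower with both (log2 -0.17 with sgRNA 15 and -0.16 with sgRNA 11).

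**Figure D2:**
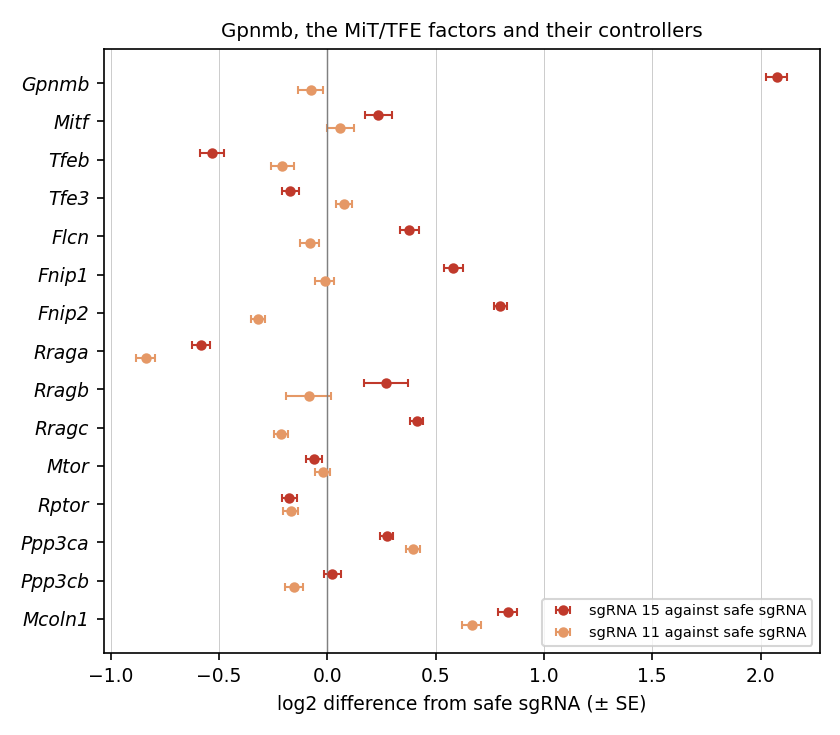
Fitted log2 differences from safe sgRNA (horizontal axis; points with SE bars from the fit over all 9 libraries) for Gpnmb, the 3 tested MiT/TFE factors and the 11 tested genes that control them, with sgRNA 15 in dark red and sgRNA 11 in orange. Gpnmb stands at 2.07 with sgRNA 15 and -0.08 with sgRNA 11, and Flcn, Fnip1, Fnip2 and Rragc are right of zero with sgRNA 15 and at or left of it with sgRNA 11.

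Most known MiT/TFE target genes of lysosomes and autophagy rose with both guides, unlike Gpnmb, but some rose with sgRNA 15 only. Of 27 listed genes 22 were tested, among them Mcoln1, Flcn and Fnip2 of the list before. With sgRNA 15, 19 of the 22 rose and 2 fell, with a median log2 difference of 0.60 (32.2% of all tested genes rose and 30.7% fell). With sgRNA 11, 15 rose and 3 fell, with a median of 0.31, and with GC content and length corrected for these numbers were 14 and 7 (33.3% of all tested genes rose and 32.4% fell). Against sgRNA 11, 17 were higher and 2 lower with sgRNA 15, with a median of 0.28 (18% of all tested genes were higher and 15.5% lower). Among the tested members, Flcn, Fnip2, Plin2, Neu1 and Atp6v0d1 rose with sgRNA 15 and were not called higher with sgRNA 11. The log2 differences with sgRNA 15 were 0.39 for Plin2, 0.18 for Neu1 and 0.29 for Atp6v0d1. With sgRNA 11 they were -0.03 for Plin2, -0.02 for Neu1 and -0.02 for Atp6v0d1. Plin2, Neu1 and Atp6v0d1 are given here with their values in view. Of the 5 genes not tested, Acp5 had no read, and Rragd, Atp6v0d2, Ctsk and Ppargc1a had between 1 and 33 reads over all libraries.

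Gla, the lysosomal alpha-galactosidase, had the largest gap between the guides among the members other than Fnip2, and it was picked for comparison after its values were seen. It stood at 136, 139 and 134 CPM with sgRNA 15, at 71.1, 70.4 and 69.4 CPM with sgRNA 11 and at 62.0, 61.4 and 66.7 CPM with safe sgRNA. The log2 difference from safe sgRNA was 1.11 with sgRNA 15 (SE 0.04, adjusted p = 4.99e-43) and 0.15 with sgRNA 11 (SE 0.04, adjusted p = 0.000659), and the guides differed by 0.95 (adjusted p = 3.59e-38).

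The most abundant target genes were higher in both guides' libraries and highest with sgRNA 15. Ctsb, a cysteine protease, reached 5468 ± 23.5 CPM with sgRNA 15 and 3327 ± 19.0 CPM with sgRNA 11, against 2716 ± 15.0 CPM with safe sgRNA (SD, n = 3 each). The log2 difference of the aspartic protease gene Ctsd from safe sgRNA was 1.16 with sgRNA 15 and 0.60 with sgRNA 11, and that of the autophagy receptor gene Sqstm1 was 1.37 with sgRNA 15 and 0.99 with sgRNA 11. Other abundant members were Hexa (a beta-hexosaminidase subunit), Tpp1 (a tripeptidyl peptidase), Ctsa (a carboxypeptidase) and Lamp1 (a glycoprotein of the lysosomal membrane). Their log2 differences ran from 0.48 for Lamp1 to 0.94 for Hexa with sgRNA 15, and from 0.25 for Lamp1 to 0.67 for Hexa with sgRNA 11. Each of these named genes was also higher with sgRNA 15 than with sgRNA 11 (adjusted p at most 1.32e-06, for Ctsa). The V-ATPase subunit gene Atp6v1h (log2 -0.21 with sgRNA 15 and -0.64 with sgRNA 11) and the LC3 relative Gabarapl1 (log2 -0.29 with sgRNA 15 and -0.37 with sgRNA 11) were the members that fell with sgRNA 15. Exons of Ctsd, Ctsb, Ctsa, Sqstm1, Hexa and Gabarapl1 are shared with other gene models over more than 10% of their length, which makes their values uncertain.

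Genes reported beside Gpnmb in lipid-laden and damage-associated macrophages mostly rose with sgRNA 15 and moved both ways with sgRNA 11. Of 25 listed genes 21 were tested, among them Plin2, Ctsb and Ctsd, which are MiT/TFE targets too. With sgRNA 15, 16 rose and 4 fell (median log2 0.39; 32.2% and 30.7% of all tested genes). With sgRNA 11, 8 rose and 10 fell (median -0.15, with 33.3% and 32.4% of all tested genes). The share that rose was near that of all genes, and the share that fell was larger. Against sgRNA 11, 13 were higher and 3 lower with sgRNA 15 (median 0.46; 18% and 15.5% of all tested genes). Cst7, Axl and Ch25h had 3 to 49 reads in all and were not tested. Cd63, a tetraspanin of late endosomes, had 2 reads over all libraries; reads that align to more than 1 place are not counted, and whether it lost reads that way was not tested.

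Mmp12, the macrophage elastase, showed the widest gap between the guides in this list. It stood at 62.9, 63.3 and 70.0 CPM with sgRNA 15, at 18, 16.7 and 16.4 CPM with sgRNA 11 and at 47.6, 48.4 and 39.0 CPM with safe sgRNA. The groups did not overlap, with log2 differences from safe sgRNA of 0.53 with sgRNA 15 (SE 0.06, adjusted p = 1.58e-11) and -1.40 with sgRNA 11 (SE 0.07, adjusted p = 1.55e-23), and of 1.93 between the guides (adjusted p = 4.92e-29). Spp1, the secreted phosphoprotein osteopontin, had 1111 ± 22.3 CPM with sgRNA 15 and 645 ± 17.1 CPM with sgRNA 11, against 996 ± 19.3 CPM with safe sgRNA (SD, n = 3 each). It was called higher with sgRNA 15 (log2 0.16, adjusted p = 2.76e-09) and lower with sgRNA 11 (log2 -0.63, adjusted p = 5.25e-41). Cd68, a heavily glycosylated lysosomal protein of macrophages, also rose with sgRNA 15 (log2 0.39, adjusted p = 3.22e-25) and fell with sgRNA 11 (log2 -0.17, adjusted p = 4.02e-09).

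Several other members had the same sign with both guides, though not the same size in each. Lgals3, a galectin that marks damaged lysosomes, rose (log2 0.83 with sgRNA 15 and 0.36 with sgRNA 11). The lipid receptor gene Trem2 averaged 575 ± 4.10 CPM with sgRNA 15 and 576 ± 4.28 CPM with sgRNA 11, against 355 ± 8.04 CPM with safe sgRNA (SD, n = 3 each), and the cysteine protease gene Ctsl rose as well (log2 0.66 with sgRNA 15 and 0.75 with sgRNA 11). Lpl, which releases fatty acids from lipoproteins, fell (log2 -1.75 with sgRNA 15 and -1.90 with sgRNA 11), as did the fatty acid carrier gene Fabp5 (log2 -0.47 with sgRNA 15 and -1.66 with sgRNA 11). Clec7a, a receptor for fungal glucans, fell with sgRNA 15 (log2 -0.92) and was called lower with sgRNA 11 (log2 -0.24). The second call was lost without safe replicate 1 or sgRNA 11 replicate 2 (adjusted p = 0.0827 and 0.0927) and with GC content and length corrected for (0.0853). Cd36, a scavenger receptor, was called lower with both guides at under 1 CPM in every group. Its call with sgRNA 15 was lost without safe replicate 3 or sgRNA 15 replicate 2 (adjusted p = 0.0612 and 0.102), and that with sgRNA 11 without safe replicate 3 or sgRNA 11 replicate 2 (0.0817 and 0.0650). Exons of Spp1 and Ctsl overlap other gene models, which makes their values uncertain.

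**Figure D3:**
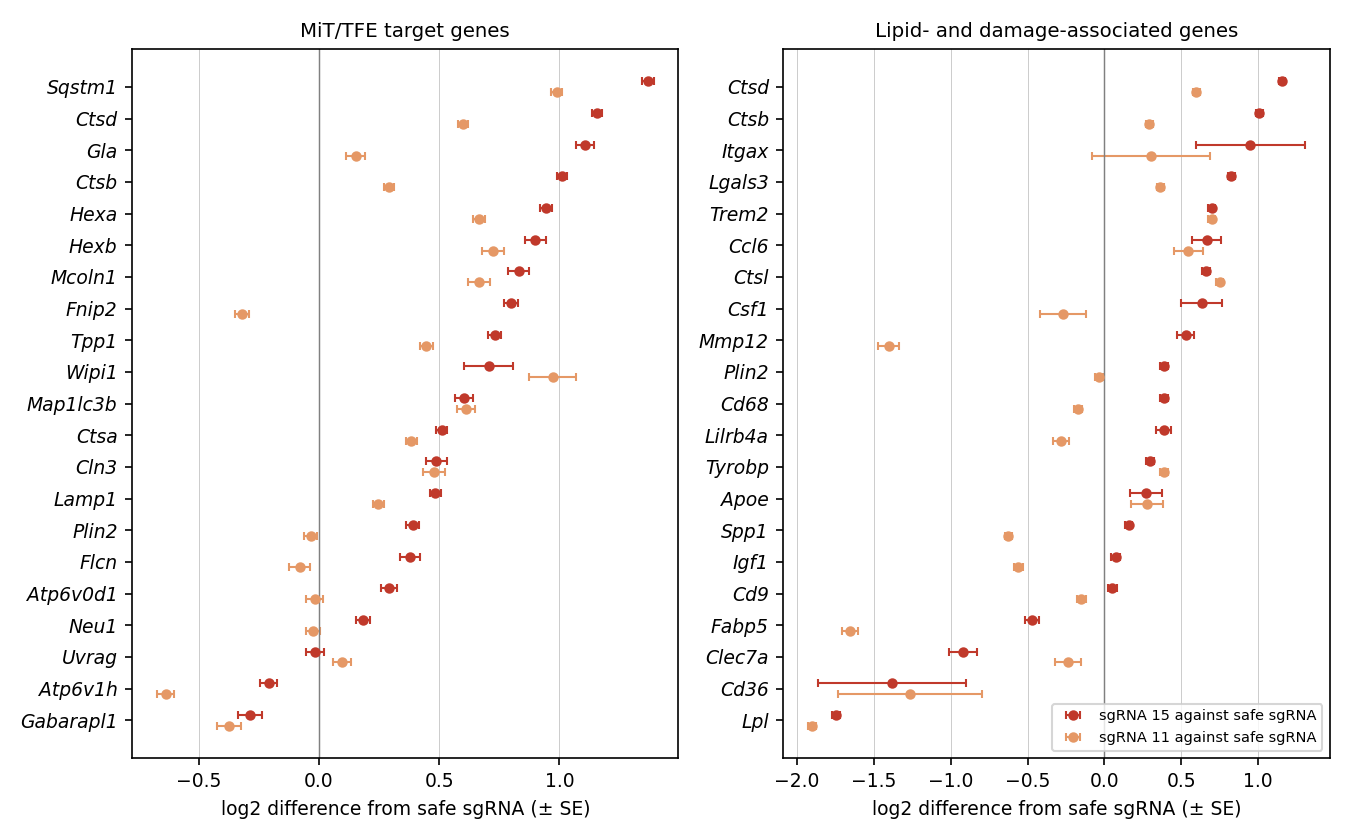
Fitted log2 differences from safe sgRNA (horizontal axis; points with SE bars from the fit over all 9 libraries) for 21 of the 22 tested MiT/TFE target genes on the left and the 21 tested lipid- and damage-associated genes on the right, ordered by their value with sgRNA 15 (dark red; sgRNA 11 in orange). On the left the medians over all 22 are 0.60 with sgRNA 15 and 0.31 with sgRNA 11, and on the right 0.39 with sgRNA 15 and -0.15 with sgRNA 11, with Mmp12, Spp1 and Cd68 on opposite sides of zero.

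Genes for proteins that Gpnmb is known to bind, or that release its outer part, showed no common direction. Of 13 listed genes 10 were tested; Fgfr1 had no read, and Itgb3 and Egfr had 21 and 64 reads in all. With sgRNA 15, 3 rose and 5 fell; with GC content and length corrected for these numbers were 2 and 7, and with scaling by library size only 4 and 5. Among all tested genes 32.2% rose and 30.7% fell with sgRNA 15. The share of members that rose was near that of all genes, and the share that fell was larger. With sgRNA 11, 3 rose and 6 fell, against 33.3% and 32.4% of all tested genes. Between the guides 5 were higher and 5 lower with sgRNA 15, against 18% and 15.5%.

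Sdc4, the syndecan through which DC-HIL acts on T cells, fell with both guides. It stood at 124, 134 and 131 CPM with sgRNA 15, at 102.5, 106 and 107 CPM with sgRNA 11 and at 208, 209.8 and 208 CPM with safe sgRNA (log2 -0.69 with sgRNA 15 and -0.99 with sgRNA 11, adjusted p = 3.33e-35 and 7.99e-46). The groups did not overlap. Itgb5, an integrin beta subunit, rose to 206 ± 7.16 CPM with sgRNA 15 and 291 ± 2.08 CPM with sgRNA 11, against 90.1 ± 2.26 CPM with safe sgRNA (SD, n = 3 each). The protease gene Adam10, whose product can shed Gpnmb from the cell surface, rose with both guides (log2 0.12 with sgRNA 15 and 0.33 with sgRNA 11, adjusted p = 9.56e-05 and 3.59e-20).

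The other members changed less than Itgb5. The related protease gene Adam17 was at log2 0.0060 with sgRNA 15 (adjusted p = 0.848; called lower, at -0.068 and adjusted p = 0.00688, with GC content and length corrected for) and fell with sgRNA 11 (log2 -0.21). Cd44, a hyaluronan receptor that also binds Gpnmb, fell (log2 -0.16 with sgRNA 15 and -0.09 with sgRNA 11). The integrin subunit gene Itga5 (log2 -0.17 with sgRNA 15 and -0.42 with sgRNA 11) and Canx, a chaperone of glycoproteins (-0.42 with sgRNA 15 and -0.53 with sgRNA 11), fell as well. Itgav fell with sgRNA 15 (log2 -0.35) and was at log2 -0.07 with sgRNA 11 (adjusted p = 0.163; 0.0236 without safe replicate 2).

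Itgb1, the integrin beta 1 subunit, was at log2 0.06 with sgRNA 15 (adjusted p = 0.00982) and at -0.06 with sgRNA 11 (adjusted p = 0.0272). The first call was lost without safe replicate 3 or sgRNA 15 replicate 3 (adjusted p = 0.0898 and 0.0564), and with GC content and length corrected for its value was -0.0031. The second was lost without sgRNA 11 replicate 1, sgRNA 11 replicate 2 or sgRNA 15 replicate 1 (adjusted p = 0.0966, 0.0692 and 0.0525), with scaling by library size only (0.382), with no filter on low counts (0.160) and with a minimum mean of 5 CPM (0.185).

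Gpnmb also belongs to the pigment cell programme, and its closest relative Pmel builds the fibrils of melanosomes. Other genes of that programme were at very low levels here. Pmel had 74 reads over the 9 libraries, or 0.300 CPM with sgRNA 15, 0.308 CPM with sgRNA 11 and 0.566 CPM with safe sgRNA. Tyr, Mlana, Oca2 and Gpr143 had no read in any library, and all 10 melanosome genes together stayed at or below 2.24 CPM in every library.

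None of the 10 nearest tested genes on chromosome 6, 5 on each side, rose as far as Gpnmb with sgRNA 15. Malsu1, a factor of mitochondrial ribosome assembly, begins 2.87 kb past the end of Gpnmb and stood at 26.2 ± 1.03 CPM with sgRNA 15, 28.4 ± 1.08 CPM with sgRNA 11 and 26.0 ± 1.09 CPM with safe sgRNA (SD, n = 3 each). It was not called with sgRNA 15 (log2 0.01, adjusted p = 0.934) or with sgRNA 11 (log2 0.12, adjusted p = 0.085; 0.0275 with scaling by library size only and 0.0328 with a minimum mean of 5 CPM). Igf2bp3, an RNA-binding protein gene that overlaps the end of Malsu1 on the other strand, fell with both guides (log2 -0.25 with sgRNA 15 and -0.40 with sgRNA 11), and so did Tra2a, a splicing factor gene (log2 -0.55 with sgRNA 15 and -0.64 with sgRNA 11). Farther on, Gm43980 was not called (log2 -0.11 with sgRNA 15, adjusted p = 0.609, and 0.05 with sgRNA 11, adjusted p = 0.819). Ccdc126 rose with sgRNA 15 (log2 0.33, adjusted p = 0.00127) and was at log2 0.16 with sgRNA 11 (adjusted p = 0.134; 0.0348 with GC content and length corrected for). Because of that overlap and the unstated strand setting, the values of Malsu1 and Igf2bp3 are uncertain.

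On the other side the nearest tested genes, Tmem176a and Tmem176b, lie 189 and 195 kb away and encode paired membrane proteins of myeloid cells. With sgRNA 15 both went the other way from Gpnmb and fell (log2 -0.29 for Tmem176a and -0.18 for Tmem176b, adjusted p = 0.000848 and 0.00415). Both rose with sgRNA 11 (log2 0.47 for Tmem176a and 0.45 for Tmem176b), where Gpnmb was close to its level with safe sgRNA. Farther away, Zfp775, a zinc finger gene, rose with both guides (log2 0.63 with sgRNA 15 and 0.73 with sgRNA 11; 12.3% of its exon length overlaps a gene on the other strand). Repin1, a zinc finger gene as well, rose with sgRNA 15 (log2 0.30, adjusted p = 0.000645; 0.0516 without safe replicate 3) and was at log2 0.13 with sgRNA 11 (adjusted p = 0.139; 0.0357 without safe replicate 2). Lrrc61, 466 kb away, rose with both guides (log2 1.06 with sgRNA 15 and 1.12 with sgRNA 11), and 30.6% of its exon length overlaps a gene on the other strand, which makes its value uncertain.

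**Figure D4:**
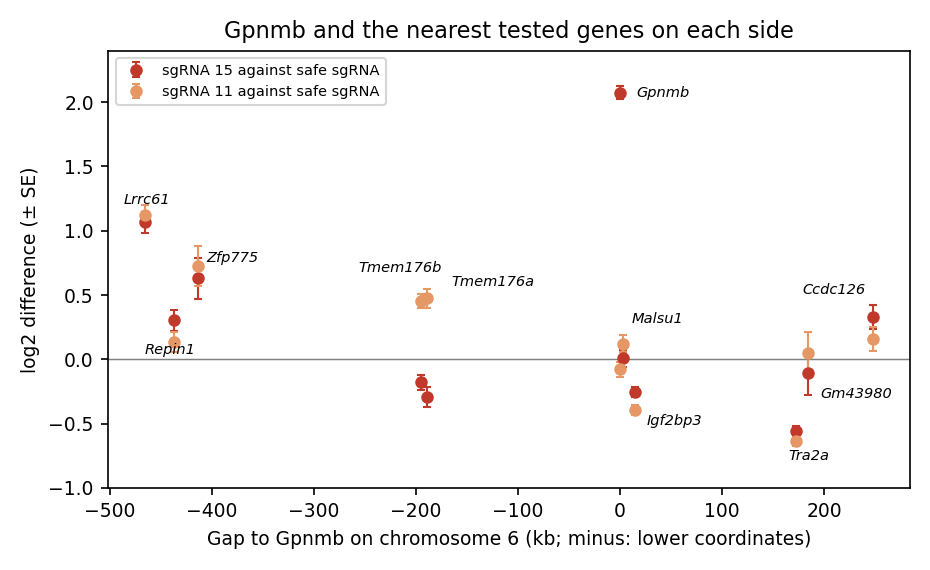
Fitted log2 differences from safe sgRNA (vertical axis; points with SE bars) against the gap between each gene and Gpnmb on chromosome 6 (horizontal axis, kb), for Gpnmb at 0 and the 5 nearest tested genes on each side, with sgRNA 15 in dark red and sgRNA 11 in orange. Gpnmb with sgRNA 15 stands at 2.07, and Malsu1, 2.87 kb away, at 0.01.

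The genes whose profile over the 9 libraries was most like that of Gpnmb were found by the root mean square difference of log2 CPM, each gene centred on its own mean, among tested genes with a mean of at least 5 CPM. The mean of 5 CPM was over all 9 libraries, so genes can pass through groups where they are high, as Tenm4 and Lifr did. Left out were pseudogenes, genes without an annotated type, and genes named as predicted models or by certain clone names (such as Gm or Rik). Since the genes given here were picked by their values, they are a description over 3 libraries a group and get no test. The nearest was Anpep, an aminopeptidase of the myeloid cell surface also known as CD13, at a distance of 0.110 log2 units. It stood at 104, 102 and 90.2 CPM with sgRNA 15, at 24.2, 24.1 and 23.5 CPM with sgRNA 11 and at 27.6, 25.5 and 26.8 CPM with safe sgRNA. Its levels and its gap between the guides were close to those of Gpnmb, and its libraries with sgRNA 15 lay far above all others.

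Next came Tenm4, a teneurin membrane protein gene (distance 0.187), which held 18 to 19.4 CPM with sgRNA 15, 4.75 to 5.52 CPM with sgRNA 11 and 3.79 to 4.51 CPM with safe sgRNA. C77080 (0.314) held 37.1 to 43.2 CPM with sgRNA 15, 13.2 to 14.9 CPM with sgRNA 11 and 8.58 to 11.6 CPM with safe sgRNA. Il7r, the interleukin 7 receptor (0.315), held 28.5 to 29.2 CPM with sgRNA 15, 8.70 to 11.3 CPM with sgRNA 11 and 9.61 to 11.5 CPM with safe sgRNA. For Il7r, as for Gpnmb, the libraries of sgRNA 11 and safe sgRNA overlapped. Tecpr1, which tethers autophagosomes to lysosomes (0.387), held 126 to 136 CPM with sgRNA 15, 51.7 to 54.2 CPM with sgRNA 11 and 32.4 to 34.5 CPM with safe sgRNA, and so, unlike Gpnmb, stood above safe sgRNA with sgRNA 11 as well. The others were the adaptor gene Bcar3 (0.394), the repressor gene Bhlhe40 (0.443) and Hpgds, which makes prostaglandin D2 (0.475). The fitted ratio of sgRNA 15 to sgRNA 11 was 2.81 for Bcar3, 2.38 for Bhlhe40 and 2.04 for Hpgds, against 4.44 for Gpnmb; 12.5% of the exon length of Bcar3 overlaps a gene on the other strand, which makes its value uncertain.

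The 4 genes nearest to the mirror image of the profile, lowest where Gpnmb was highest, were Fos, Cx3cr1, Dmpk and Lifr. Fos, a subunit of AP-1, held 12.6 to 16.3 CPM with sgRNA 15, 35.2 to 36.4 CPM with sgRNA 11 and 42.8 to 48.7 CPM with safe sgRNA. The fractalkine receptor gene Cx3cr1 held 20.4 to 22.5 CPM with sgRNA 15, 44.5 to 49.3 CPM with sgRNA 11 and 61.6 to 65.9 CPM with safe sgRNA. In both genes the groups did not overlap, and sgRNA 11 lay between sgRNA 15 and safe sgRNA. The kinase gene Dmpk held 89.9 to 96.2 CPM with sgRNA 15, 270 to 278 CPM with sgRNA 11 and 154 to 165 CPM with safe sgRNA, so here sgRNA 11 stood highest. The leukaemia inhibitory factor receptor gene Lifr held 2.84 to 3.07 CPM with sgRNA 15, 4.85 to 6.21 CPM with sgRNA 11 and 6.42 to 7.43 CPM with safe sgRNA.

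**Figure D5:**
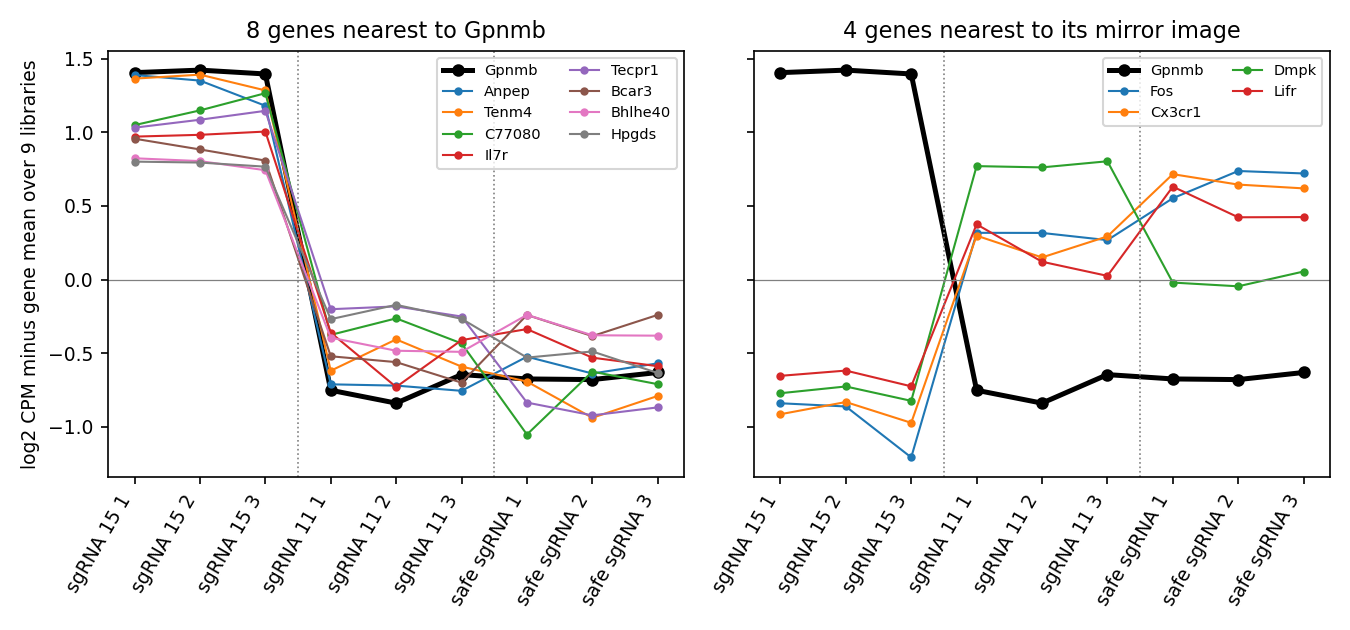
Log2 CPM of each library minus the gene's mean over the 9 libraries (vertical axis) for Gpnmb (black) with the 8 genes nearest to its profile on the left and the 4 nearest to its mirror image on the right; lines only join the points of a gene. On the left all genes are high in the 3 libraries with sgRNA 15, with Anpep nearest at a distance of 0.110, and on the right all 4 are low there.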

How the data were processed

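RNA-seq libraries of J774A.1 cells were grouped by the guide in their labels. The authors deposited raw counts per gene, made with STAR and HTSeq on mm10 according to the submitters' processing notes. Tool versions, annotation and strand setting: not given in the sources used here. Genes took 79.3 to 80.7% of reads, and the HTSeq tallies of all other reads stayed out of library sizes. Symbols, positions and overlaps came from GENCODE M21 (55227 identifiers matched, 260 did not), promoters from RefSeq (GRCm38.p6). Amino acid sequences are not used here.

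The edgeR package (4.0.16, R 4.3.3) was used on these counts: filterByExpr (minimum count 10), TMM factors (0.979 to 1.02), and a robust quasi-likelihood fit to all 9 libraries with 6 residual degrees of freedom. Tests were 2-sided, with Benjamini-Hochberg adjustment over all genes in each comparison and a threshold of 0.05. SEs derive from the F statistics. The log2 CPM of profiles used a prior count of 2. A gene with at least 10% of its exon length shared is called uncertain.

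The members and lists were chosen with earlier results of these data known. A few genes of the lists are not reported here. Named genes were all tested members of lists of up to 12, of longer lists the 8 most abundant and those called against the majority with sgRNA 15, 5 neighbours on each side, and the 8 nearest and 4 mirrored profiles; Gla, Mmp12, Igf1, Lilrb4a and genes given only by read counts or promoter letters were added with their values in view, and the promoter motifs with the sequence in view. The alternatives tried: DESeq2 (1.42.0), limma-voom (3.58.1), other scalings and filters, a GC and length correction, a replicate block, only the groups compared, and each library left out. The test was checked on simulated counts with known changes, for sgRNA 11 against safe sgRNA and genes with a mean of at least 5 CPM. It recovered 33 of 50 changes of 1.2-fold, 47 of 50 of 1.5-fold and all 50 of 2-fold and of 4-fold. Of 13044 unchanged genes it called 6. Small changes can thus go without a call. Only 50 genes were changed at each size, while in the data 33.3% of tested genes were called higher and 32.4% lower with sgRNA 11. The adjustment depends on how many genes change, so these counts do not give error rates for the data.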

Additional observations from a re-analysis of the deposited data

Results flagged for a closer look

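Among 56 tested genes named here, leaving out Gpnmb and those picked for their profile, 10 were called in opposite directions with the guides, with a called difference between sgRNA 15 and sgRNA 11 in edgeR's quasi-likelihood test. Over all 13453 tested genes this share was 1.88%, but some of the 56 were named with their values in view, so the shares cannot be compared. Higher with sgRNA 15 than with sgRNA 11, in log2 units, were Mmp12 (1.93), Fnip2 (1.12), Spp1 (0.78), Lilrb4a (0.67), Igf1 (0.64), Rragc (0.63), Cd68 (0.56) and Itgb1 (0.12). Lower were Tmem176a (-0.77) and Tmem176b (-0.63). Adjusted p-values of these differences ran from 8.38e-06 for Itgb1 to 2.43e-50 for Fnip2. Lilrb4a, an inhibitory receptor of myeloid cells (log2 0.39 with sgRNA 15 and -0.28 with sgRNA 11), and Igf1, a growth factor (0.07 and -0.56), were singled out by this criterion. The call of Igf1 with sgRNA 15 was lost in DESeq2 (adjusted p = 0.0763), with GC content and length corrected for (0.0641), with no filter on low counts (0.0584), and without safe replicate 2 or 3, sgRNA 11 replicate 3, or sgRNA 15 replicate 1 or 2 (adjusted p from 0.0535 to 0.301). Both calls of Itgb1 against safe sgRNA were lost under several alternatives, given with its values in the report. More than 10% of the exon length of Lilrb4a and Spp1 overlaps other gene models, which makes their values uncertain.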

How the results depend on the processing

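The log2 difference of Gpnmb kept its sign in every alternative run. Leaving out each library in turn gave 2.05 to 2.07 for sgRNA 15 against safe sgRNA, 2.10 to 2.20 for sgRNA 15 against sgRNA 11 and -0.14 to -0.03 for sgRNA 11 against safe sgRNA. The first value moved beyond the replicate spread with scaling by library size only (2.11) and with the GC and length correction (1.98). Leaving out a library kept 7 or 8 of the 8 nearest profiles. With the replicate number as a block the 3 values were 2.07, 2.15 and -0.08, and the block changed no call of a named gene. The deviations of same-numbered libraries from their group means correlated by -0.0077 to 0.058 over all tested genes. Counting noise weakens such correlations, so they cannot decide whether the numbers pair the samples.

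Counts of called genes over the whole table stayed within 1.5 times. Among the MiT/TFE factors, 1 was called higher with sgRNA 11 (against 0) with scaling by library size only and with a minimum mean of 5 CPM, and 0 to 1 without a library (1 without safe replicate 3 or sgRNA 15 replicate 1); between the guides 0 were higher in DESeq2 and with the GC and length correction, and 0 to 1 without a library. Among MiT/TFE targets 7 fell with sgRNA 11 after that correction, and between the guides 1 was lower in DESeq2 and 1 to 2 without a library (1 without sgRNA 11 replicate 1, sgRNA 11 replicate 2 or sgRNA 15 replicate 2).

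Most signs that reversed belonged to values with no call on either side; Itgb1 with sgRNA 15 lost its call, and Adam17 with sgRNA 15 was called lower with GC content and length corrected for. With GC content and length corrected for, reversed values were -0.073 for Slc12a9, -0.068 for Adam17, -0.054 for Malsu1, -0.0012 for Ppp3cb and -0.0031 for Itgb1 with sgRNA 15 against safe sgRNA. With sgRNA 11 against safe sgRNA they were 0.092 for Fnip1, 0.070 for Il7r, -0.046 for Repin1 and -0.028 for Tfe3, and between the guides 0.030 for Rptor and 0.0026 for Trem2. With scaling by library size only they were 0.020 for Fnip1, 0.023 for Il7r and 0.011 for Mtor (sgRNA 11), and 0.0043 for Trem2 (between guides). With a minimum mean of 5 CPM they were 0.011 for Fnip1, 0.015 for Il7r and 0.0022 for Mtor (sgRNA 11). With sgRNA 15, Adam17 was at -0.0036 in DESeq2 and -0.0034 with relative log expression factors, and Malsu1 at -0.0027 and -0.0028. Leaving out each library gave, with sgRNA 15, -0.016 to 0.11 for Slc12a9, -0.031 to 0.025 for Malsu1, -0.028 to 0.051 for Ppp3cb and -0.029 to 0.0073 for Adam17. With sgRNA 11 it gave -0.072 to 0.088 for Il7r, -0.053 to 0.034 for Fnip1 and -0.029 to 0.091 for Gm43980, and between the guides -0.51 to 0.27 for Cd36 and -0.040 to 0.038 for Rptor. The causes were not tested.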
